A study of Mus musculus with 8 samples.

Results

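The mitosis genes are 40 genes whose products enter, organise or end mitosis. They were chosen by symbol, and each gene was represented by the probe set annotated to that symbol alone with the highest mean over all 8 arrays. Of the 40 genes, 39 had such a probe set, and all 39 lay among the 13196 genes that could be tested of 18193 genes measured. Ccnb1, which encodes cyclin B1, was not analysed here. The members fall into 9 roles: cyclins, CDK1 and its phosphatases; mitotic kinases and their activator; the spindle checkpoint; kinetochore and centromere; partners in the chromosomal passenger complex; kinesins and spindle proteins; cytokinesis; anaphase and mitotic exit; and a last group of chromatin, proliferation marker and transcription factor.

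Cyclin-dependent kinase 1, bound to A- and B-type cyclins, drives cells into mitosis, and the Polo and Aurora kinases build the spindle. Kinetochores attach chromosomes to spindle microtubules, and the spindle checkpoint holds back the anaphase-promoting complex, the ubiquitin ligase that ends mitosis, until all of them are attached. Transcripts of these genes accumulate in G2 and mitosis and are scarce in resting cells, so in a growing culture their levels tend to follow the share of cells in those phases. In bulk RNA, fewer cells in mitosis and less RNA per cell cannot be told apart.

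Total RNA was measured in 2 established mouse lines, RAW macrophages and CT26 colon tumour cells, with Affymetrix arrays labelled from 5 µg of RNA. The 4 groups of 2 arrays each were RAW co-culture, RAW alone, CT26 co-culture and CT26 alone, and the labels name no other genotype, agent or time point. In co-culture, RAW cells on a transwell insert shared medium with CT26 cells in the well below, without contact, and inserts were put into the wells 8 hours after the cells were plated. The experiment was performed 2 times, and replicate numbers were read as marking experiments 1 and 2. The labels do not say whether cultures with the same number share a day or passage. RAW cells were lysed on the insert and CT26 cells were detached with trypsin first, so cell line and harvest cannot be told apart. With 1 sample per group and experiment, p-values between groups measure no more than the spread between samples of 2 experiments. The arrays' number limits the precision of every value, and all levels and differences are on the log2 scale.

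All 14 macrophage markers lay above the floor on every RAW array, where their median was 11.93 to 12.29, against 7 to 10 markers and medians of 5.58 to 5.93 on CT26 arrays. In CT26, labelled as epithelial, 6 to 7 of 12 epithelial markers lay above the floor, while 3 to 4 did so on RAW arrays. Over the CT26 arrays Krt20 ranged from 11.46 to 11.55, Tjp1 from 11.49 to 11.75 and Krt18 from 9.97 to 10.20. Every RAW array held these genes between 4.38 and 5.42. The cadherin Cdh1, at 3.72 to 3.86, and the brush-border gene Vil1, at 4.02 to 4.33, were below the floor in CT26. Mesenchymal and matrix markers had medians of 10.25 to 10.89 in CT26 and of 5.51 to 5.80 in RAW. The floor was the 40th percentile of each array, 5.21 to 5.28, and no member was ever below the 76.9th percentile of its array.

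Promoters of many genes of late G2 and mitosis hold a CHR, a short element bound by the MuvB core, either within the repressor complex DREAM or together with B-MYB and FOXM1, and CCAAT boxes bound by the factor NF-Y. RefSeq promoters of GRCm38.p6, 250 bases before to 50 after the annotated start, were found for 33 of the 40 members, Ccnb1 included. Both strands were searched for the CHR letters TTTGAA or TTCGAA and for CCAAT. A CHR match lay in 26 of the 33 members (78.8%) and a CCAAT match in 26 (78.8%), and 23 (69.7%) held both. Over all 27025 genes with a promoter the shares were 21.7% for the CHR letters, 41.1% for CCAAT and 8.61% for both. Among 35 genes of DNA replication and S phase with a promoter the shares were 22.9%, 57.1% and 14.3%, in the same order, and among 22 other spindle, kinesin and cytokinesis genes they were 63.6%, 63.6% and 50%. Of 12 genes for subunits of the anaphase-promoting complex and its activator Fzr1, 8.33% held the CHR letters and 0% held both. A match describes letters and not a binding site.

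Of 35 CHR matches, 25 lay within 50 bases of the start, in 24 genes. Between 150 bases and 1 base upstream of the start lay 47 of 61 CCAAT matches, in 26 genes. These stretches overlap and differ in length, and positions in the promoters of all genes were not counted. The letters of the motifs overlapped once, in Cdca8. Neither motif was found in Nuf2, Mad2l1, Pttg1 and Birc5. The promoters of 6 genes are given because these genes carry the main line and experiment differences or, for Pttg1, hold neither motif. Capitals mark the motif letters, with TTCAAA or ATTGG where a match reads on the opposite strand, and positions count from 1 at the first base after the start.
Ccnb2, chr9:70421505-70421804, minus strand: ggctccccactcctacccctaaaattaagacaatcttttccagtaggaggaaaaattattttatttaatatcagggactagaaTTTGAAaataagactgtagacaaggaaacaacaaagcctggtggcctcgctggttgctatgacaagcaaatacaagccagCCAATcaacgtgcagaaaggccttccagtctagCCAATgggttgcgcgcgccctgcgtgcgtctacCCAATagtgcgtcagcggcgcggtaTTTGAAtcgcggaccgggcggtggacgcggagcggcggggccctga
Mki67, chr7:135716330-135716629, minus strand: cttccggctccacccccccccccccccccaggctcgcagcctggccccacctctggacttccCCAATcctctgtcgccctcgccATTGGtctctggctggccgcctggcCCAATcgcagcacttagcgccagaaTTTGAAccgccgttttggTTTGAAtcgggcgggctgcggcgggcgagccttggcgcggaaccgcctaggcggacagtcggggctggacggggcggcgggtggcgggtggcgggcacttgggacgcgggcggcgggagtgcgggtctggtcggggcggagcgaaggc
Anln, chr9:22389157-22389456, minus strand: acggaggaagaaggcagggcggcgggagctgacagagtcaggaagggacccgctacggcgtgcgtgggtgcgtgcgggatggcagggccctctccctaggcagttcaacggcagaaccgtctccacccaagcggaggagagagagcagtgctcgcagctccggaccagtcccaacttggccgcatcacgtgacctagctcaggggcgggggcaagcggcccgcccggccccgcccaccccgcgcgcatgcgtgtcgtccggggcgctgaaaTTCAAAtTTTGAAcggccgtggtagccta
Plk1, chr7:122159185-122159484, plus strand: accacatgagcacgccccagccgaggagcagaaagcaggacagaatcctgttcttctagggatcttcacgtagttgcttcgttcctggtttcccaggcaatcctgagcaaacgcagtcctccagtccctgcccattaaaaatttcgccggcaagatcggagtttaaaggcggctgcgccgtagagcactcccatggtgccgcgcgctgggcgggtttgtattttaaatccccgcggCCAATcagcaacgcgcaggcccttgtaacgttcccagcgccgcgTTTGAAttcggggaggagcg
Kif11, chr19:37376132-37376431, plus strand: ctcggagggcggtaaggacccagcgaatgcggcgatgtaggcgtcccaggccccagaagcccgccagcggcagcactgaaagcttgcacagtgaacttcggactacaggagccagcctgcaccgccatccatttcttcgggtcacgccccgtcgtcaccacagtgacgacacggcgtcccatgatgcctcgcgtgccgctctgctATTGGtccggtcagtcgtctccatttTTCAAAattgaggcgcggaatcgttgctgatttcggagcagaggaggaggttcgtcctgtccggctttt
Pttg1, chr11:43425932-43426231, minus strand: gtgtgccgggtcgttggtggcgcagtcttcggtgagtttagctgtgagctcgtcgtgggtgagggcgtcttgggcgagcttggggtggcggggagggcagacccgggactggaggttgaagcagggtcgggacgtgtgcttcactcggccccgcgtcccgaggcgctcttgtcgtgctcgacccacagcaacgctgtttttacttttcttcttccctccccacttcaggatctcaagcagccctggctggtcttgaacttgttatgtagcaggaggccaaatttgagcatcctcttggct
In Ccnb2, CCAAT began at -87, -54 and -21 and the CHR letters at 5, with another CHR match at -167. In Mki67 the CHR letters began at -116 and -98, upstream of the window that holds most of them, and CCAAT at -188, -166 and -141. Anln had CHR letters at 22 and 29 and no CCAAT. Plk1 had CCAAT at -14 and the CHR letters at 31, and Kif11 had CCAAT at -45 and the CHR letters at -19.

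**Figure D1:**
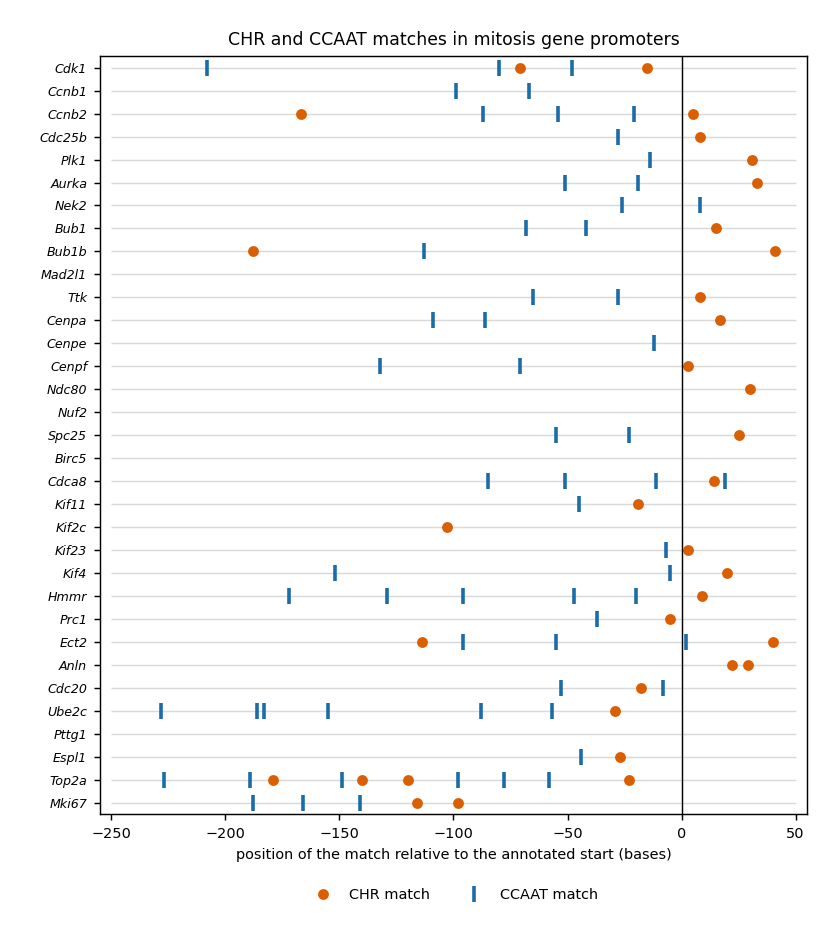
Positions of CHR matches (TTTGAA or TTCGAA) and CCAAT matches, on either strand, in the RefSeq promoters of the 33 members that have one, in bases relative to the annotated start. Of the CHR matches, 25 of 35 lie within 50 bases of the start, and of the CCAAT matches, 58 of 61 lie upstream of it. The window holds 250 bases upstream of the start and 50 after it.

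In RAW cells, no mitosis gene passed the test in co-culture. Of 39 members 0 passed an adjusted p of 0.05 in limma, against 33 of all 13196 genes (0.250%), and in a paired fit, with the experiment as a block in each line, 0 members and 470 genes (3.56%) did. Unadjusted p lay under 0.05 for 1 member in the unpaired fit and 4 in the paired one, and the lowest adjusted p was 0.908 and 0.168, in that order. Changes of the members lay between -0.27 and 0.22, with a median of 0.01, the same as over all genes (0.01). They were positive in 20 members and negative in 19, which turned to 18 and 21 under cyclic loess scaling, where the median was -0.01. The change had the same sign in both experiments in 26 members, 14 of them higher (35.9%) and 12 lower (30.8%), beside 32.5% and 29.1% of all genes. In the unpaired fit, the 95% intervals of single members reached from -1.03 to 1.18, and in the paired fit from -0.48 to 0.42.

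Among cyclins and CDK1, Cdk1 stood at 12.55 and 12.35 in RAW co-culture, against 12.40 and 12.36 in RAW alone. The groups overlapped, and the catalytic subunit of the mitotic kinase showed no difference beyond its spread. Of the mitotic kinases, Plk1, the Polo kinase of spindle poles and kinetochores, had 10.58 and 11.39 in RAW co-culture, against 10.46 and 11.19 in RAW alone. Aurka, the Aurora kinase of the spindle poles, had 11.88 and 11.82 in RAW co-culture, against 11.66 and 11.69 in RAW alone, a difference of 0.17 ± 0.12 (SE). Both co-culture arrays of Aurka lay above both arrays of RAW alone, whereas those of Plk1 overlapped. Aurkb, the Aurora kinase of the passenger complex, had 10.67 and 10.77 in RAW co-culture, against 10.45 and 10.73 in RAW alone.

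The kinetochore members had the lowest role median in RAW, with changes negative in 5 of 6 and a median of -0.17, also under cyclic loess scaling (5 of 6). Among 26 other kinetochore and centromere genes 15 were negative, with a median of -0.02. Cenpf, a large kinetochore protein of late G2 and mitosis, had 10.19 and 10.21 in RAW co-culture, against 10.45 and 10.50 in RAW alone. Its arrays did not overlap, and the difference of -0.27 ± 0.11 had the lowest p of all members in this comparison (unadjusted p = 0.0423, limma adjusted p = 0.908, and 0.168 in the paired fit). The other Cenpf probe sets, above the floor on all 8 arrays, differed by -0.19 and 0.01. Spc25 and Nuf2, subunits of the NDC80 complex that binds microtubules, differed by -0.23 ± 0.21 and -0.16 ± 0.15. Ndc80 itself had 9.35 and 9.07 in RAW co-culture, against 9.58 and 9.15 in RAW alone. Cenpe, the motor that carries chromosomes to the spindle equator, differed by -0.18 ± 0.22. Cenpa, the histone variant that marks centromeres, was the exception, with 12.61 and 12.15 in RAW co-culture, against 12.41 and 12.03 in RAW alone.

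Of the other roles in RAW, Mki67, the antigen used to mark dividing cells, had 12.61 and 12.66 in RAW co-culture, against 12.96 and 12.83 in RAW alone. The groups did not overlap, and the difference was -0.26 ± 0.12 (adjusted p = 1.00). Ube2c, the ubiquitin-conjugating enzyme of the anaphase-promoting complex, had 13.50 and 13.43 in RAW co-culture, against 13.22 and 13.27 in RAW alone, a difference of 0.22 ± 0.13. Pttg1, the separase inhibitor securin, differed by 0.17 ± 0.14 and the checkpoint kinase-like gene Bub1b by 0.18 ± 0.15. Cdc20, which activates the anaphase-promoting complex, had 12.73 and 12.60 in RAW co-culture, against 12.71 and 12.64 in RAW alone. Members that lay lower and higher by about the same amount thus stood side by side, and none was past the threshold.

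In CT26 cells, again no mitosis gene passed the test in co-culture. By limma 0 of 39 members and 0 of 13196 genes (0%) passed the threshold, in the unpaired fit and in the paired fit (0%). Unadjusted p under 0.05 occurred in 0 members and 107 genes in the unpaired fit, and in 1 member, Spc25, and 752 genes in the paired fit. Changes lay between -0.20 and 0.06, a narrower range than in RAW. They were negative in 31 of 39 members (79.5%), beside 54.7% of all genes, with a median of -0.06 beside -0.01, and under cyclic loess scaling they were negative in 25 members with a median of -0.03. In both experiments 16 members (41.0%) were lower and 3 (7.69%) higher, beside 30.1% and 23.8% of all genes. The 95% intervals of single members reached from -1.08 to 1.04 in the unpaired fit and from -0.41 to 0.37 in the paired one.

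Hmmr, a hyaluronan receptor that also binds spindle microtubules, had 10.40 and 10.59 in CT26 co-culture, against 10.68 and 10.68 in CT26 alone, a difference of -0.19 ± 0.13. Mki67 had 10.85 and 10.80 in CT26 co-culture, against 11.08 and 10.89 in CT26 alone, a difference of -0.16 ± 0.12. In both genes the co-culture arrays lay below those of CT26 alone, and neither difference passed the test. Spc25 had 10.69 and 10.46 in CT26 co-culture, against 10.85 and 10.71 in CT26 alone (-0.20 ± 0.21, adjusted p = 0.868 in the paired fit). Kif20a, a kinesin of the central spindle, differed by -0.16 ± 0.16, and Cdca8, the passenger subunit borealin, by -0.13 ± 0.14. At the other end stood Foxm1, the transcription factor of late cell-cycle genes, with 10.29 and 11.14 in CT26 co-culture, against 10.24 and 11.08 in CT26 alone. Ccna2, cyclin A2, and Cdc25b, a phosphatase that activates CDK1, each differed by 0.05, with errors of 0.17 and 0.37. Another Ccna2 probe set, above the floor on all 8 arrays, went the other way in CT26, by -0.15.

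The lists of other division genes had 0 calls in CT26 too, as all genes did. Changes were negative in 38 of 42 genes of DNA replication and S phase (32 under cyclic loess scaling), in 21 of 26 other kinetochore genes (20 under loess), in 15 of 19 condensin and cohesin genes (14 under loess) and in 10 of 13 genes of the anaphase-promoting complex (7 under loess). They were also negative in 17 of 24 other spindle, kinesin and cytokinesis genes (14 under loess) and in 12 of 20 DREAM and E2F-type regulators (10 under loess), but positive in 7 of 8 G1 cyclins and partners and in 7 of 10 CDK1 brakes and CDK inhibitors, both also under loess. In RAW, 27 of the 42 replication genes had a positive change, with a median of 0.09, and none passed. For scale, changes were positive in all 14 tested interferon-stimulated genes in RAW co-culture, with a median of 2.16. Of these, 5 passed the threshold, among them Rtp4, by 4.77 ± 0.48 (adjusted p = 0.0257). In CT26 all 14 were positive too, with a median of 0.53 and 0 past the threshold.

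**Figure D2:**
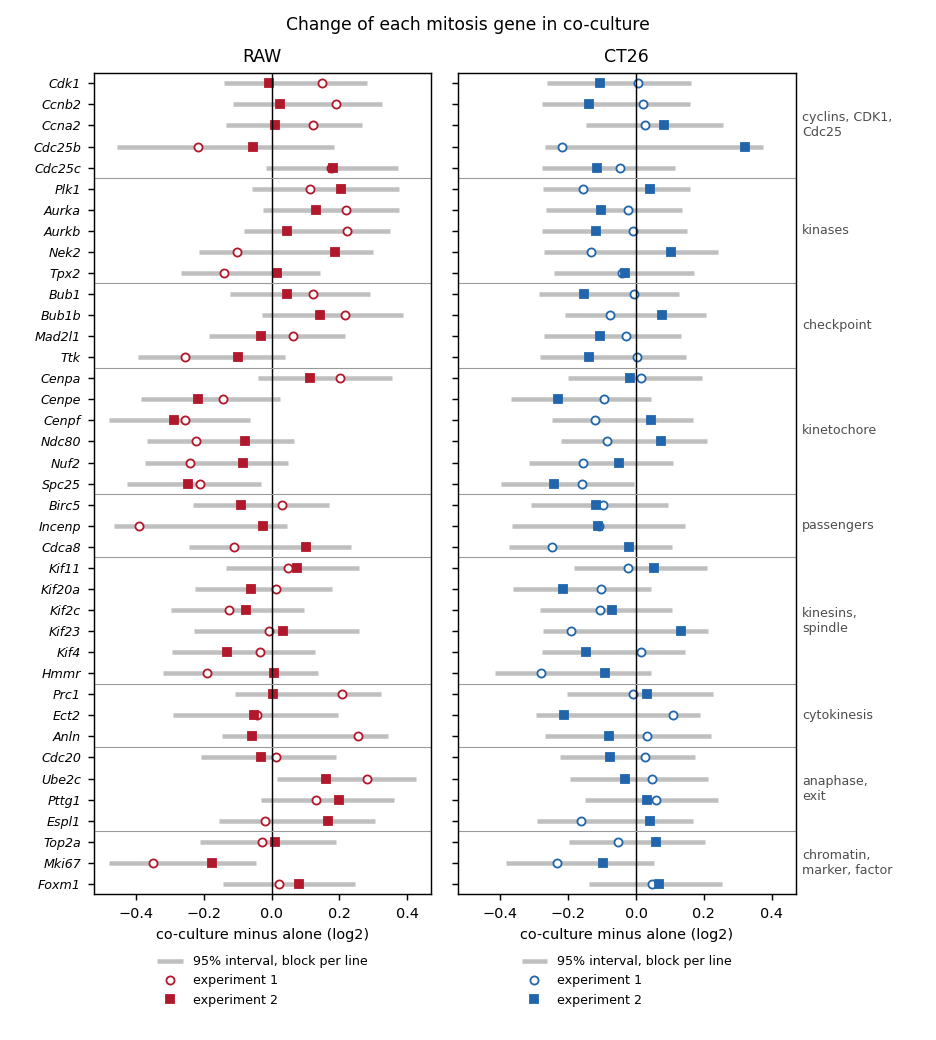
Co-culture minus alone (log2) for each of the 39 members in RAW and in CT26, by role, with 1 point per experiment and, as bars, the 95% interval of the paired fit (block per line). Points lie on both sides of 0 in RAW and mostly below 0 in CT26 (31 of 39 means), and no member passed the threshold in either line.

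The co-culture effect in RAW minus that in CT26, which shares its arrays with both comparisons above, passed for 0 of 39 members and 1 of 13196 genes in limma (0.00758%). In the paired fit 0 members and 98 genes passed (0.743%), and unadjusted p was under 0.05 for 0 members in either fit, against 328 genes unpaired and 1508 paired. Differences were positive in 25 members and negative in 14, with a median of 0.06 beside 0.02 over all genes, and cyclic loess scaling brought them to 20 and 19 with a median of 0.01. The largest were 0.26 ± 0.22 for Cdc25c, another CDK1-activating phosphatase, 0.24 ± 0.17 for Aurka, 0.22 ± 0.61 for Plk1 and 0.21 ± 0.19 for Ube2c, and at the lower end -0.23 ± 0.15 for Cenpf. The lowest adjusted p of a member was 0.465, in the paired fit.

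Between the lines, single mitosis genes differed by up to 3.75-fold, while the median of the 39 stayed near 0. In RAW alone minus CT26 alone that median was -0.04, beside -0.05 over all genes. By limma, 5 members were higher in RAW, beside 17.0% of all genes, and 4 were lower, beside 17.6%. In the paired fit the counts were 11 higher and 15 lower, where 28.3% and 30.4% of all genes were called. That fit takes out each line's own shift between experiments and does not pair RAW with CT26. Its p-values for line differences, here and below, thus leave out how a difference varied between experiments. In co-culture, RAW minus CT26 gave 7 higher, beside 17.7% of all genes, and 4 lower, beside 17.0%, or 13 higher and 9 lower in the paired fit, beside 29.0% and 28.9%. In either direction alone, 23.1% of the members and 34.6% of the other genes were called in the unpaired fit, and 66.7% and 58.6% in the paired one. A difference between the groups of genes was not tested. Of the members, 11 (28.2%) differed by more than 0.5 between the lines grown alone, beside 39.4% of all genes. The 90th percentile of the size of the difference was 0.95 in the members and 1.92 over all genes.

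The sign of the line difference was the same alone and in co-culture in 36 of 39 members (92.3%, beside 86.5% of all genes), which rest on separate arrays of the same 2 experiments. In the unpaired fit, 4 members were higher in RAW in both conditions (Mki67, Ccnb2, Bub1 and Cdca8) and 3 were lower (Anln, Kif20a and Cenpf), beside 2000 of all 13196 genes in each direction. All 4 RAW arrays lay above all 4 CT26 arrays in 9 members (23.1%, beside 24.0% of all genes) and below them in 10 (25.6%, beside 25.9%). In the other 20 members the lines overlapped. These were Ccna2, Cdc25b, all 5 kinases and activators, Mad2l1, Ttk, every kinetochore member but Cenpf, Birc5, Kif2c, Ube2c, Pttg1, Espl1 and Top2a.

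**Figure D3:**
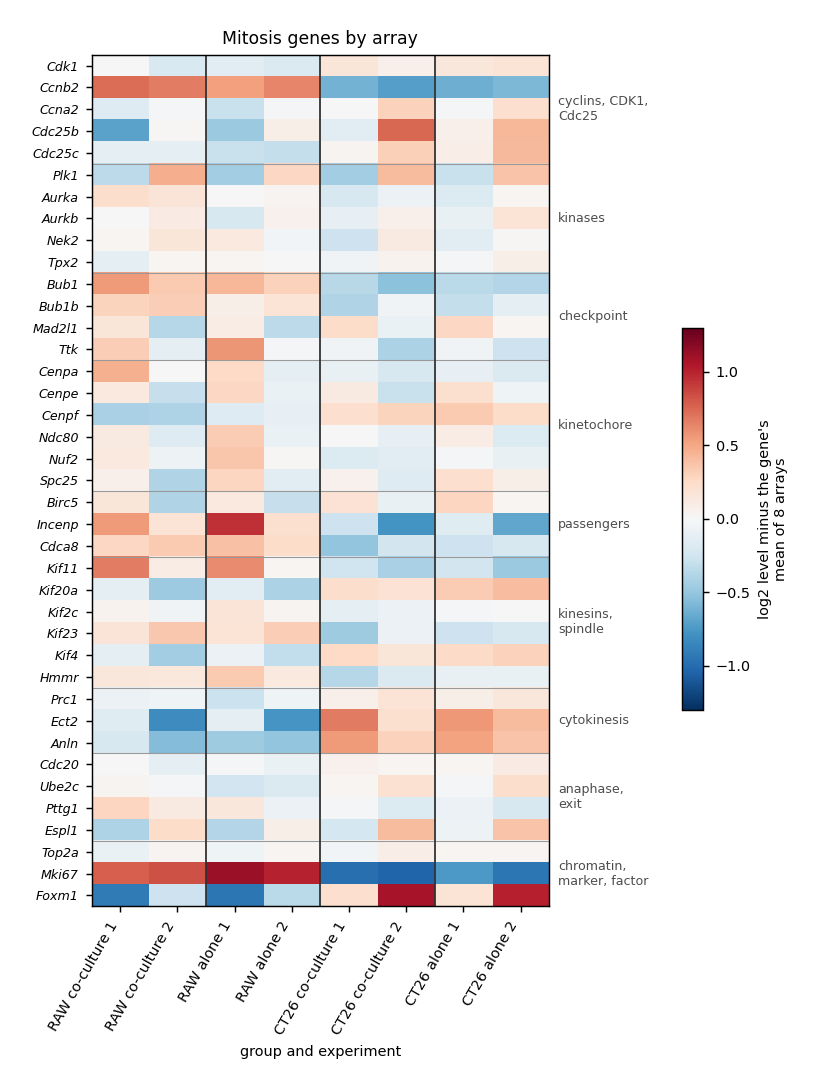
Level of each of the 39 members on each of the 8 arrays, drawn as log2 level minus that gene's mean over the arrays, with members grouped by role and arrays by group and experiment. Rows such as Mki67, Ccnb2 and Foxm1 split by line, Plk1 and Espl1 split by experiment, and Top2a, whose arrays span 0.17, is even throughout.

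Of the cyclins and phosphatases, Ccnb2, cyclin B2, had 12.52 and 12.62 in RAW alone, against 11.34 and 11.40 in CT26 alone. In co-culture it had 12.71 and 12.64 in RAW, against 11.36 and 11.26 in CT26. No array of one line reached the range of the other, and the difference was 1.20 ± 0.11 alone (2.29-fold, adjusted p = 0.000201) and 1.36 ± 0.11 in co-culture (2.57-fold, adjusted p = 0.000106). Cdc25c had 8.71 and 8.69 in RAW alone, against 9.09 and 9.43 in CT26 alone, and was lower in RAW by 0.55 ± 0.16, at 0.681 times the CT26 level (adjusted p = 0.0315). It passed in 5 of 8 fits with 1 array left out, its adjusted p was 0.186 without experiment 2 of CT26 alone and it was 0.0595 with only the compared groups in the fit. In co-culture Cdc25c differed by -0.30 ± 0.16 and passed in the paired fit (adjusted p = 0.0184) but not in the unpaired one. Cdk1 was lower in RAW alone by 0.33 ± 0.12 and Ccna2 by 0.26 ± 0.17, differences that passed in the paired fit but not in the unpaired one (adjusted p = 0.0157 and 0.0354).

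None of the mitotic kinases passed between the lines alone in either fit. Plk1 had 10.46 and 11.19 in RAW alone, against 10.62 and 11.29 in CT26 alone, and the 2 experiments stood farther apart than the lines. Aurkb had 10.45 and 10.73 in RAW alone, against 10.57 and 10.85 in CT26 alone. Tpx2, which activates Aurora A on spindle microtubules, differed by -0.01 ± 0.11 with arrays that spanned 0.19 in all. Aurka and Nek2, a kinase of centrosome separation, differed by 0.10 ± 0.12 and 0.11 ± 0.16. In co-culture Aurka was higher in RAW by 0.34 in the paired fit (adjusted p = 0.0119), the one call among the 5 members of this role in either condition.

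In the spindle checkpoint, Bub1, the kinase that recruits checkpoint proteins to kinetochores, had 12.04 and 11.90 in RAW alone, against 11.25 and 11.22 in CT26 alone. In co-culture it had 12.16 and 11.94 in RAW, against 11.24 and 11.07 in CT26. The lines were apart in both conditions, by 0.73 ± 0.13 alone (1.66-fold, adjusted p = 0.00501) and 0.89 ± 0.13 in co-culture (1.86-fold, adjusted p = 0.00197). With all probe sets of the gene averaged the difference alone was 0.57 and missed the threshold (adjusted p = 0.0821). Its relative Bub1b, which inhibits CDC20, was higher in RAW in co-culture by 0.53 ± 0.15 (adjusted p = 0.0343), but its adjusted p passed with only 1 of the 8 arrays left out in turn and reached 0.175 without experiment 1 of CT26 co-culture. Alone, Bub1b differed by 0.35 ± 0.15, past the threshold in the paired fit (adjusted p = 0.0121), as did the checkpoint kinase gene Ttk at 0.44 ± 0.25 (0.00489) and Mad2l1, which encodes the inhibitor MAD2, at -0.27 ± 0.24 (0.0288).

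At kinetochores and centromeres, Cenpf had 10.45 and 10.50 in RAW alone, against 10.95 and 10.85 in CT26 alone. In co-culture it had 10.19 and 10.21 in RAW, against 10.83 and 10.90 in CT26. It was lower in RAW on every array, by 0.43 ± 0.11 alone (adjusted p = 0.0210) and 0.66 ± 0.11 in co-culture (adjusted p = 0.00321). The call alone passed in 4 of 8 fits with 1 array left out, with an adjusted p of up to 0.126 without experiment 1 of CT26 alone. Its other probe sets gave -0.11 and 0.12 alone and -0.52 and 0.25 in co-culture, in the same order, and with all of them averaged the differences were -0.14 and -0.31 (adjusted p = 0.498 and 0.136). The remaining 5 kinetochore members did not pass in the unpaired fit, and alone they lay between -0.08 for Spc25 and 0.25 for Nuf2. Cenpa had 12.41 and 12.03 in RAW alone, against 12.05 and 11.97 in CT26 alone, and Ndc80 had 9.58 and 9.15 in RAW alone, against 9.33 and 9.06 in CT26 alone. In the paired fit Nuf2 passed alone (adjusted p = 0.0481) and Cenpa in co-culture, at 0.37 (adjusted p = 0.00686).

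Of the 3 passenger partners, 2 were called higher in RAW alone. Cdca8 had 11.97 and 11.83 in RAW alone, against 11.32 and 11.38 in CT26 alone, and was higher by 0.55 ± 0.14 (1.47-fold, adjusted p = 0.0186), a call that passed in 5 of 8 fits with 1 array left out and had an adjusted p of up to 0.0972 without experiment 1 of CT26 alone. In co-culture it was higher by 0.68 ± 0.14 (1.60-fold, adjusted p = 0.00764). Incenp, the scaffold that binds Aurora B, had 12.96 and 12.22 in RAW alone, against 11.85 and 11.34 in CT26 alone, a difference of 0.99 ± 0.31 (1.99-fold, adjusted p = 0.0487). All its RAW arrays lay above all its CT26 arrays, with a wide spread between experiments, and its call passed with only 1 of the 8 arrays left out in turn, with an adjusted p of up to 0.237 without experiment 2 of CT26 alone. In co-culture Incenp differed by 0.89 ± 0.31 (adjusted p = 0.0688, and 0.000313 in the paired fit). Birc5, the passenger subunit survivin, differed by -0.24 ± 0.24, with overlapping arrays.

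Kinesins and spindle proteins went both ways. Kif20a had 11.04 and 10.77 in RAW alone, against 11.51 and 11.58 in CT26 alone, and was lower in RAW by 0.64 ± 0.16 (adjusted p = 0.0198, and up to 0.104 without experiment 2 of CT26 alone), and in co-culture by 0.50 ± 0.16 (adjusted p = 0.0485). Kif11, the motor that pushes spindle poles apart, had 10.63 and 10.04 in RAW alone, against 9.78 and 9.54 in CT26 alone. In co-culture it had 10.68 and 10.11 in RAW, against 9.76 and 9.59 in CT26. RAW was above CT26 on every array, by 0.68 ± 0.26 alone and 0.72 ± 0.26 in co-culture, past the threshold in the paired fit (adjusted p = 0.000349 and 0.000245) and not in the unpaired one (0.0875 and 0.0711). Kif4, a motor that binds chromosomes, had 9.78 and 9.44 in RAW co-culture, against 10.15 and 10.04 in CT26 co-culture, and was lower in RAW by 0.49 ± 0.16 (adjusted p = 0.0488). Kif23, a motor of the central spindle, and Hmmr were higher in RAW co-culture than in CT26 co-culture, by 0.53 ± 0.16 and 0.42 ± 0.13 (adjusted p = 0.0411 and 0.0407). These last 3 calls and that of Kif20a in co-culture rest near the threshold: with 1 array left out in turn, Kif4 and Kif23 passed in 1 of 8 fits, Hmmr in 2 and Kif20a in 3, and the highest adjusted p was 0.219 for Kif4 and 0.218 for Kif20a without experiment 2 of RAW co-culture, and 0.203 for Kif23 and 0.198 for Hmmr without experiment 1 of CT26 co-culture. Kif2c, a kinesin that takes microtubules apart, differed by 0.10 ± 0.11 in co-culture.

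Cytokinesis genes had negative differences in all 3 members, alone and in co-culture, also under cyclic loess scaling. Anln, the actin-binding scaffold anillin of the contractile ring, had 12.04 and 11.98 in RAW alone, against 13.02 and 12.87 in CT26 alone. In co-culture it had 12.29 and 11.93 in RAW, against 13.05 and 12.79 in CT26. It was lower in RAW by 0.93 ± 0.16 alone, at 0.524 times the CT26 level (adjusted p = 0.00425), and by 0.81 ± 0.16 in co-culture (adjusted p = 0.00793), with 0.0515 in co-culture when experiment 1 of CT26 co-culture was left out. Ect2, which activates the GTPase RhoA at the division site, had 10.54 and 9.89 in RAW alone, against 11.23 and 11.07 in CT26 alone. In co-culture Ect2 had 10.50 and 9.84 in RAW, against 11.33 and 10.86 in CT26. All RAW arrays were below all CT26 arrays, by 0.93 ± 0.30 alone (adjusted p = 0.0533, and 0.000191 in the paired fit) and 0.93 ± 0.30 in co-culture (0.0542 and 0.000195). With 1 array left out, Ect2 crossed the unpaired threshold in 3 of 8 fits in each condition, with an adjusted p as low as 0.0354 alone and 0.0340 in co-culture. Prc1, which bundles microtubules of the central spindle, differed by -0.28 ± 0.12 alone.

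At anaphase and mitotic exit no member passed in the unpaired fit alone. Cdc20 had 12.71 and 12.64 in RAW alone, against 12.75 and 12.83 in CT26 alone, and Pttg1 differed by 0.18 ± 0.14. Ube2c and Espl1, the protease separase that cuts cohesin, were lower in RAW by 0.32 ± 0.13 and 0.30 ± 0.32 and passed in the paired fit (adjusted p = 0.0151 and 0.0309). In co-culture Pttg1 was higher in RAW by 0.30 in the paired fit (adjusted p = 0.0179).

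The last role held the 2 genes with the widest span over the 8 arrays, Mki67 (2.16) and Foxm1 (2.01), and, by the probe set shown, the one with the narrowest, Top2a (0.17). Mki67 had 12.96 and 12.83 in RAW alone, against 11.08 and 10.89 in CT26 alone, and in co-culture 12.61 and 12.66 in RAW, against 10.85 and 10.80 in CT26. It was higher in RAW by 1.91 ± 0.12 alone (3.75-fold, adjusted p = 2.75e-05) and 1.81 ± 0.12 in co-culture (3.51-fold, adjusted p = 3.68e-05), and it has 1 probe set. Foxm1 went the other way, with 9.13 and 9.72 in RAW alone, against 10.24 and 11.08 in CT26 alone, and with 9.15 and 9.80 in RAW co-culture, against 10.29 and 11.14 in CT26 co-culture. The highest RAW array lay below the lowest CT26 array, and the difference was -1.24 ± 0.41 alone (adjusted p = 0.0585, and 1.38e-05 in the paired fit) and -1.24 ± 0.41 in co-culture (0.0576 and 1.35e-05). With 1 array left out, Foxm1 crossed the unpaired threshold in 3 of 8 fits alone and 1 of 8 in co-culture. Its other probe sets above the floor gave -0.75 and -0.76 alone and -0.84 and -0.99 in co-culture, and with all probe sets averaged the differences were -0.71 and -0.77 (adjusted p = 0.107 and 0.0825). Top2a, the topoisomerase that untangles sister chromatids, had 12.42 and 12.50 in RAW alone, against 12.50 and 12.50 in CT26 alone. In co-culture Top2a had 12.39 and 12.51 in RAW, against 12.45 and 12.56 in CT26. Relative to CT26 alone, the probe set shown for Top2a stood at 0.973 times in RAW alone. Another Top2a probe set above the floor on all 8 arrays differed by 0.52 alone and 0.68 in co-culture, in the direction of Mki67.

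**Figure D4:**
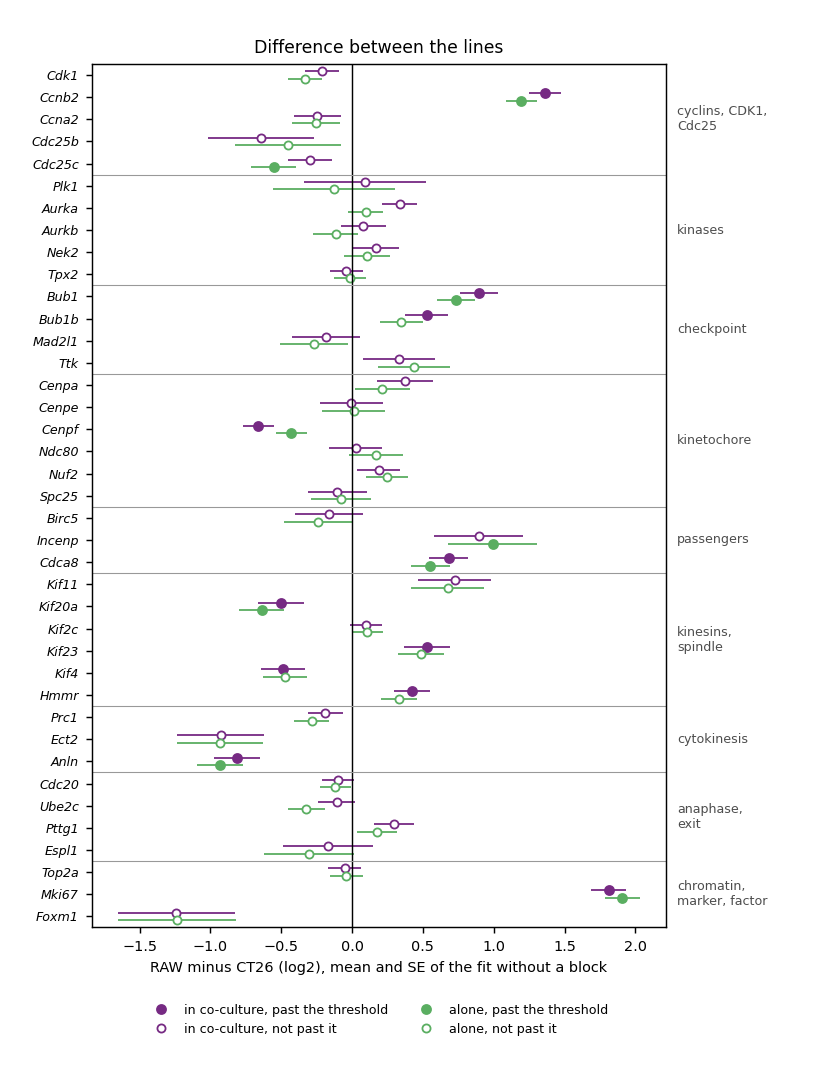
RAW minus CT26 (log2) for each member, in co-culture and alone, as the mean and SE of the unpaired fit; filled points passed an adjusted p of 0.05 in limma. Past the threshold in both conditions, Mki67, Ccnb2, Bub1 and Cdca8 lie to the right and Anln, Kif20a and Cenpf to the left. Foxm1 (-1.24 alone and in co-culture) and Ect2 (-0.93 alone and in co-culture) also lie away from 0, without passing in both conditions. The same holds for Incenp (0.99 alone, 0.89 in co-culture) and Kif11 (0.68 alone, 0.72 in co-culture).

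Other genes of cell division also went both ways between RAW alone and CT26 alone. By limma in the unpaired fit, 17.0% of all genes were called higher there and 17.6% lower. A difference of the lists below from all genes was not tested. Of 26 other kinetochore and centromere genes 5 were higher and 3 lower, of 24 other spindle, kinesin and cytokinesis genes 3 and 4, of 19 condensin and cohesin genes 3 and 4, and of 42 replication genes 6 and 2. Of 13 genes of the anaphase-promoting complex 0 were higher and 3 lower, led by Anapc4 with a mean of 10.48 in RAW alone, against 11.62 in CT26 alone. Partners of members differed as well. Racgap1, which pairs with Kif23 in centralspindlin and activates Ect2, was lower in RAW by 1.01 ± 0.16, while Bora, a cofactor of Aurora A in the activation of Plk1, was higher by 1.60 ± 0.12. Zwint, a kinetochore protein, was lower by 1.45 ± 0.12 and its partner Zw10 higher by 1.29 ± 0.16. Among DREAM and E2F-type regulators, the E2F factor E2f2 was higher by 1.66 ± 0.15 and E2f7, a repressor of the same family, lower by 1.24 ± 0.13.

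More members differed between the experiments, a comparison of 4 arrays with 4, than between cultures of a line, 2 arrays with 2. The 4 arrays of an experiment were read as the 4 groups of 1 performance. The p-values between experiments thus measure how evenly a shift repeated over the groups, and not how performances vary. Experiment 2 minus experiment 1, averaged over the 4 groups, passed for 5 members that were higher, beside 16.8% of all genes, and 9 that were lower, beside 11.3%, and cyclic loess scaling gave the same counts. In all 4 groups 10 members (25.6%) were higher and 13 (33.3%) lower, beside 24.9% and 21.8% of all genes.

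The higher members were Plk1, Foxm1, Cdc25b, Espl1 and Ccna2. Plk1 had 11.39, 11.19, 11.33 and 11.29 in experiment 2, against 10.58, 10.46, 10.46 and 10.62 in experiment 1 (RAW co-culture, RAW alone, CT26 co-culture, CT26 alone). Every array of experiment 2 lay above every array of experiment 1, by 0.77 ± 0.07 (1.70-fold, adjusted p = 0.00125). Foxm1 had 9.80, 9.72, 11.14 and 11.08 in experiment 2, against 9.15, 9.13, 10.29 and 10.24 in experiment 1, in the same group order. It was higher in each group, by 0.73 ± 0.07 (1.66-fold, adjusted p = 0.00175), and its 3 probe sets above the floor gave 0.70 to 0.73. Cdc25b was higher by 0.63 ± 0.10 (1.55-fold), with 9.52, 9.57, 10.25 and 9.93 in experiment 2, against 8.80, 9.02, 9.35 and 9.57 in experiment 1. Espl1 was higher by 0.54 ± 0.07 (1.46-fold), with 10.64, 10.48, 10.81 and 10.77 in experiment 2, against 10.00, 10.02, 10.17 and 10.33 in experiment 1. Both were above in every group (adjusted p = 0.00535 and 0.00306). Ccna2 was higher by 0.24 ± 0.06 (adjusted p = 0.0302), a call that no fit with 1 array left out kept, with an adjusted p of up to 0.113 without experiment 1 of CT26 co-culture.

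The lower members lay mostly at the kinetochore, checkpoint and passenger complex: 3 of 6 kinetochore members, 2 of 4 checkpoint members and 2 of 3 passenger partners, with Kif11 and Ect2. Incenp had 12.19, 12.22, 11.23 and 11.34 in experiment 2, against 12.57, 12.96, 11.74 and 11.85 in experiment 1, a fall by 0.53 (adjusted p = 0.00458). Mad2l1 had 12.00, 12.03, 12.29 and 12.40 in experiment 2, against 12.53, 12.47, 12.61 and 12.64 in experiment 1, and fell by 0.39 (adjusted p = 0.0103). Both genes were lower in each of the 4 groups. Cenpe had 10.41, 10.63, 10.43 and 10.66 in experiment 2, against 10.84, 10.98, 10.83 and 10.93 in experiment 1, in the same group order. Ttk had 9.91, 10.01, 9.62 and 9.75 in experiment 2, against 10.35, 10.60, 9.98 and 9.98 in experiment 1. Cenpe fell by 0.36 and Ttk by 0.41 (adjusted p = 0.00856 and 0.0114), again with no overlap within a group. Ect2, Kif11, Birc5, Spc25 and Ndc80 fell by 0.49, 0.39, 0.38, 0.31 and 0.27. With 1 array left out in turn, Ndc80 and Spc25 passed in 2 of 8 fits and Kif11 and Ect2 in 4, with the highest adjusted p at 0.105 for Ndc80 without experiment 1 of RAW alone, and at 0.0951, 0.0870 and 0.0553 for Spc25, Kif11 and Ect2 without experiment 1 of RAW co-culture.

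Probe sets of some of these genes disagreed on the experiment. Those of Incenp gave -0.53, 0.44, -0.04 and -0.73, those of Cenpe -0.36 and 0.22, and those of Top2a 0.08 and -0.74. With all probe sets averaged, Incenp, Ttk, Cenpe and Spc25 missed the threshold (adjusted p = 0.0933, 0.0758, 0.541 and 0.0598), as did Ccna2 (0.133). Over all members, 30 of 40 other probe sets above the floor had the sign of the one shown, against 36 of 40 in the comparison of the lines grown alone. The arrays' own 3′ to 5′ probe sets also differed by experiment: for Gapdh the 3′ minus 5′ level was -0.147, -0.144, -0.123 and -0.159 in experiment 2, against -0.198, -0.225, -0.185 and -0.195 in experiment 1, higher in all 4 groups. For beta-actin it was 0.114, 0.108, 0.199 and 0.235 in experiment 2, against 0.044, 0.155, 0.089 and 0.116 in experiment 1, higher in 3 of 4. The part of these RNA values in the result was not tested.

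**Figure D5:**
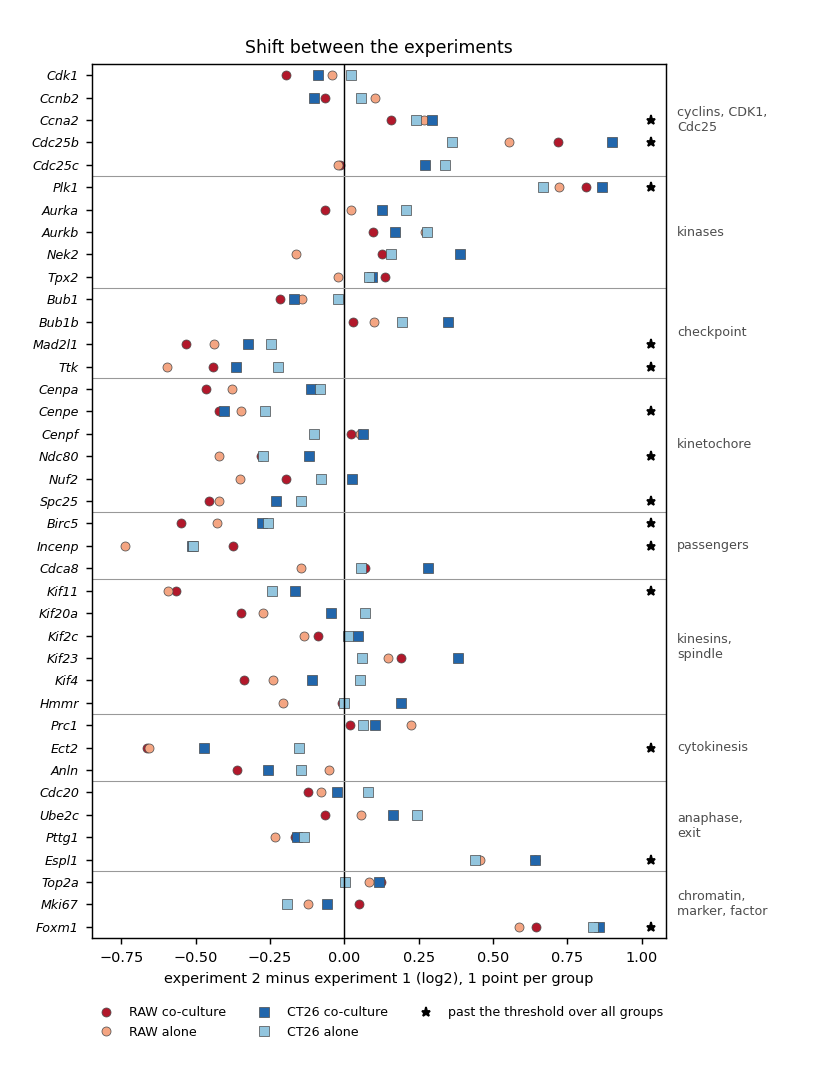
Experiment 2 minus experiment 1 (log2) for each member, with 1 point per group; marked members passed an adjusted p of 0.05 over all groups. Plk1, Foxm1, Cdc25b and Espl1 lie to the right in all 4 groups, Incenp, Ect2, Ttk and Mad2l1 to the left, and RAW points lie left of CT26 points in most members.

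The shift in RAW minus the shift in CT26 passed for 0 of 39 members in limma, where 2.04% of all genes passed, and unadjusted p was under 0.05 for 5 members. It was negative in 32 members (82.1%, beside 56.0% of all genes), with a median of -0.14 beside -0.03, and in 28 under cyclic loess scaling. It was lower in RAW in both conditions in 26 members (66.7%, beside 37.3%). The lowest values were -0.38 ± 0.12 for Kif11, -0.35 ± 0.14 for Ect2, -0.33 for Cenpa, -0.32 for Kif20a and -0.32 ± 0.12 for Cdc25c (adjusted p = 0.166, 0.271, 0.214, 0.228 and 0.214), and with all probe sets averaged that of Cenpa was 0.27. Median shifts of the members were -0.07 in RAW co-culture, -0.12 in RAW alone, 0.03 in CT26 co-culture and 0.02 in CT26 alone. Replication genes were negative in 40 of 42, with 0 past the threshold, and in 35 under loess.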

How the data were processed

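The 8 deposited columns hold log2 expression values. The submitters' processing notes name RMA and affy as the authors' tools, and for versions, settings and build the entry is: not given in the sources used here. RMA with quantile normalization removes a change in total RNA per cell, and it compresses low signals. Of 45101 probe sets, 64 controls were left out, 34945 had 1 gene symbol in the platform annotation, 932 had several and 9160 had none listed.

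Each gene took its probe set with the highest mean over 8 arrays, and 13196 of 18193 genes lay above the 40th percentile of both arrays of at least 1 group. The unpaired fit took the 4 group means over the 8 arrays (limma 3.58.1, R 4.3.3) and left 4 residual degrees of freedom. The paired fit added the experiment as a block in each line and left 2, so it pairs the cultures of a line and not the lines. Both had two-sided tests, Benjamini-Hochberg adjustment over 13196 genes and a threshold of 0.05. Same-numbered arrays deviated together in every pair of groups (correlation 0.484 to 0.765 across genes). The numbers were read as the 2 performances and so were taken to pair the samples. The script was tested on simulated data. Alternatives were a replicate block, cyclic loess, averaged probe sets, no filter, a variance trend, only the compared groups, and each array left out.

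The members, the gene lists and the tests were chosen with earlier results of these data known. Values per array are given for 12 members chosen over the roles, except Ccnb1, which was not analysed. In each comparison they are also given for up to 4 members per direction with the largest moderated statistic, called ones first in the fit with a block. Other lists give up to 3 genes each. Promoters came from RefSeq, GRCm38.p6.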

Additional observations from a re-analysis of the deposited data

How the results depend on the processing

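No result changed direction past the threshold. Counts of called members moved most with a replicate block. RAW alone minus CT26 alone gave 23 (shared by the lines) or 26 (per line) in place of 9. RAW co-culture minus CT26 co-culture gave 20 or 22 in place of 11. With the block per line, the error leaves out how line differences varied between experiments. Only the compared groups in the fit gave 7 in co-culture. With 1 array left out, the counts lay between 4 and 10 alone (4 without experiment 2 of CT26 alone), 6 and 11 in co-culture (6 without either CT26 alone array or without experiment 1 of CT26 co-culture, 7 without experiment 2 of RAW co-culture), and 9 and 12 in place of 14 between experiments (9 without any 1 RAW array). The block changed no call in CT26 or RAW co-culture, nor in their difference, where 0 members passed in each fit.

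Some medians near 0 moved in some settings by more than their spread between experiments, or between culture conditions for the experiment shifts. The medians of RAW alone minus CT26 alone and of experiment 2 minus experiment 1 stayed within their spread in every setting. The ranges below also hold settings that stayed within the spread. The RAW median was -0.00900 under cyclic loess, -0.0234 with averaged probe sets and -0.0383 to 0.0559 with an array left out. The CT26 median was -0.0289 under loess and -0.0740 to -0.0410 with an array left out, and the median difference between these effects 0.00599 under loess and -0.00150 to 0.139. RAW co-culture minus CT26 co-culture had a median of -0.0382 under loess, 0.0208 with averaged probe sets and -0.0225 to 0.103 with an array left out. The difference of experiment shifts had -0.12, -0.10 and -0.16 to -0.13, in the same order. The cause of these moves was not tested, beyond that leaving out an array leaves 1 in its group, which is then assumed to vary like the others. All members lay above the floor on every array, and the 2 arrays per group limit the precision.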
